A study of Saccharomyces cerevisiae with 2 samples.

Results

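The mRNAs of the yeast cap-binding complex and of the poly(A)-binding protein were followed in 1 *xrn1*∆ *trf4*∆ and 1 *trf4*∆ culture of *S. cerevisiae*. The 9 genes were taken by their identifiers from a table of 9633 transcripts, of which 5775 are nuclear ORFs. They are *CDC33* (YOL139C), *TIF4631* (YGR162W), *TIF4632* (YGL049C), *TIF1* (YKR059W), *TIF2* (YJL138C), *TIF3* (YPR163C), *PAB1* (YER165W), *CAF20* (YOR276W) and *EAP1* (YKL204W), and all 9 have reads in both libraries. Both strains are BY4741 and grew exponentially, unsynchronized, in YPD. *xrn1*∆ *trf4*∆ lacks Xrn1p, the cytoplasmic 5′–3′ exoribonuclease, together with Trf4p, which adds short poly(A) tails to nuclear RNAs as part of TRAMP, and *trf4*∆ lacks Trf4p alone, so the comparison asks what the loss of Xrn1p adds in cells without Trf4p. No wild type is analysed here. Each strain is a single culture and a single library, so no difference below has a replicate check and no p-value is given. In RNA of a whole culture, fewer cells that express a gene and less of its RNA per cell cannot be told apart.

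Translation of most mRNAs begins at the 5′ cap, which eIF4E (*CDC33*) binds. eIF4E sits on the scaffold eIF4G, made by a pair of genes in yeast (*TIF4631* and *TIF4632*), and eIF4G also carries the RNA helicase eIF4A (*TIF1* and *TIF2*), which eIF4B (*TIF3*) assists. The poly(A)-binding protein (*PAB1*) holds the other end of the mRNA and binds eIF4G. *CAF20* and *EAP1* encode eIF4E-binding proteins, which take the site on eIF4E that eIF4G uses and so restrain initiation. The same cap and poly(A) tail protect an mRNA, since removal of the tail is followed by decapping and by digestion of the body from the 5′ end, the step that Xrn1p carries out.

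The contact with eIF4E links both kinds of partner, and its coding sequence is shown because binding eIF4E is what the scaffolds and the eIF4E-binding proteins have in common. The motif searched in the translated ORFs was a tyrosine, any 4 residues, a leucine and then one of phenylalanine, isoleucine, leucine, methionine, valine, tryptophan or tyrosine. In the R64 assembly it was found at residues 452 to 458 of *TIF4631* (chrVII:825403-825441, plus strand), 423 to 429 of *TIF4632* (chrVII:408309-408347, minus strand), 4 to 10 of *CAF20* (chrXV:841333-841371, plus strand) and 109 to 115 of *EAP1* (chrXI:54019-54057, plus strand). Capitals mark the codons of the 7 residues.
*TIF4631*: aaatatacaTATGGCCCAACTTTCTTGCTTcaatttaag
*TIF4632*: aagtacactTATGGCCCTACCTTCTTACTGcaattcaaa
*CAF20*: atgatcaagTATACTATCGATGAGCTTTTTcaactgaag
*EAP1*: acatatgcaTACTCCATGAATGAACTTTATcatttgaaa
Such a match is frequent. It occurs in 1908 of 5769 translated ORFs (33.1%), once each in *TIF1*, *TIF2* and *PAB1*, a further time in *EAP1*, and not in *CDC33* or *TIF3*, so it is a description of letters and not evidence of binding.

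The *TIF1* (chrXI:554987-556174, plus strand) and *TIF2* (chrX:153504-154691, minus strand) copies of eIF4A matter for the counting. Their coding sequences of 1188 nt differ at 6 positions, all of them the third of a codon, and their proteins of 395 residues do not differ at all. A stretch of 60 nt around a pair of these positions (coding nucleotides 196 to 255, chrXI:555182-555241 and chrX:154437-154496) is printed with the differing bases in capitals, to show how little separates the copies.
*TIF1*: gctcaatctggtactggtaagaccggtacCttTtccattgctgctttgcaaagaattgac
*TIF2*: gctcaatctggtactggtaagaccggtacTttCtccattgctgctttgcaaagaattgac
Per the methods, the deposited densities count reads of 50 nt with a unique position only. The methods add that repeated sequences were mapped separately, and do not say whether *TIF1* and *TIF2* were among these. Of the 1139 windows of that length within each ORF, 967 are identical in the copies, 172 differ at 1 or 2 positions and 0 at more than 3, the number of mismatches allowed in alignment. Of the 98 windows that reach across an end of the ORF, 90 differ at more than 3 positions. Unless the copies were mapped separately, the values of *TIF1* and *TIF2* thus rest on a small part of each gene. All windows of *CDC33*, *TIF4631*, *TIF4632*, *PAB1*, *CAF20*, *EAP1* and *TIF3* occur once in the genome. Of those of *TIF3*, 92.6% stay unique when 3 mismatches are allowed.

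**Figure D1:**
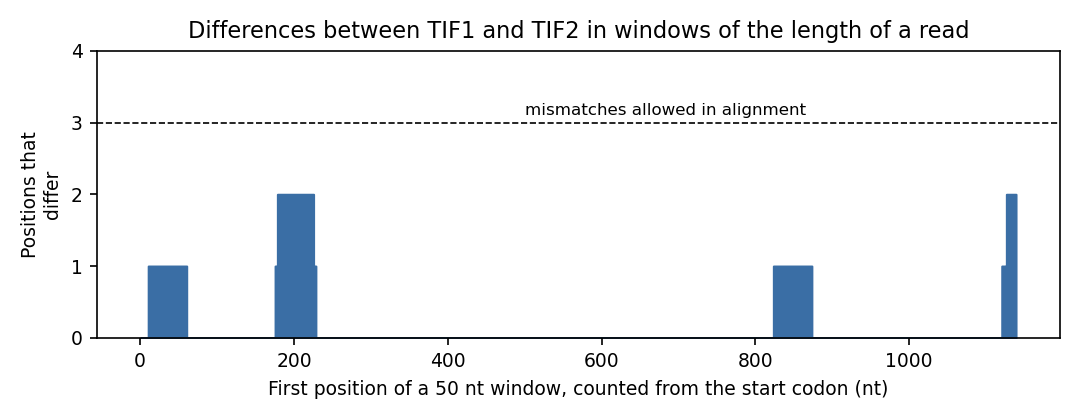
Number of positions at which *TIF1* and *TIF2* differ (vertical axis) in each window of 50 nt, by its first position from the start codon (horizontal axis, nt). No window within the ORF exceeds 2 differences, below the 3 mismatches allowed (dashed line), and a stretch of 644 nt holds none.

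Read density, in normalized reads per nucleotide of transcript, is the unit of the table. Density multiplied by the length in R64 gave whole reads for all 9 genes, as for 99.4% of ORFs found in that assembly. In *xrn1*∆ *trf4*∆ 12121664 ORF reads were recovered, with a median of 978.5 per ORF, and in *trf4*∆ 7455598, with a median of 316. The genes described here rest on 473 to 7596 reads in *xrn1*∆ *trf4*∆ and on 150 to 10738 reads in *trf4*∆. All intervals are exact 95% intervals computed from reads, so they describe counting error and nothing else. The libraries carry the labelled deletions. *TRF4* (listed in RefSeq as *PAP2*) had 1 read in *xrn1*∆ *trf4*∆ and 0 in *trf4*∆, and *XRN1* had 111 reads in *xrn1*∆ *trf4*∆ against 7272 in *trf4*∆.

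Loss of Xrn1p in *trf4*∆ cells went with a higher density of most ORFs but not of most of these genes. The log2 ratio (*xrn1*∆ *trf4*∆ over *trf4*∆) was above 0 for 3 of the 9 genes, whereas 82.0% of the 5638 ORFs detected in each library were higher. The genes share their libraries and are not replicates of one another. *PAB1* and *TIF3* were more than 2-fold lower in *xrn1*∆ *trf4*∆, which 2.63% of ORFs were, and 0 of the 9 were more than 2-fold higher, against 40.1% of ORFs. The count of 2 lower genes becomes 6 when both libraries are scaled on the median ORF and 4 with a 30% trimmed mean. The share of ORFs past 2-fold lower rises as well, so 2.63% is not the background of these counts. The trimmed mean puts the ORF median at 0.00058, and 12.3% of ORFs lay more than 1 log2 unit below their median. For scaling on the median ORF the share was not counted. It lies between that 12.3% and the share of ORFs below 0 on the deposited scale, which are 1014 of 5638. The median log2 ratio of the 9 genes was -0.20 (range -1.17 to 0.98), and that of all ORFs 0.78 with quartiles of 0.20 and 1.34. Together the 9 genes took 0.168% of ORF reads in *xrn1*∆ *trf4*∆ (95% interval 0.166 to 0.170) and 0.297% in *trf4*∆ (0.293 to 0.301). Reads that fit both *TIF1* and *TIF2* may be missing from these shares. The scale between the libraries bears on direction. Scaling on the median ORF shifts all log2 ratios by -0.94, so that *TIF1* and *CAF20* pass below 0 and 42.4% of ORFs lie above 0. A 30% trimmed mean shifts them by -0.78, with the same sign changes, and equal ORF sums by -0.08, with none. Position against other ORFs does not move with the scale. In all, 8 of the 9 genes lay below the ORF median, each with its whole interval, and 4 lay more than 1 log2 unit below it, against 12.3% of ORFs. Low ratios were more frequent among dense ORFs. Of the 564 ORFs in the decile of highest mean density, 478 lay below the ORF median and 234 more than 1 log2 unit below it. In that decile 48 were more than 2-fold lower on the deposited scale. The share of ORFs with a whole interval below the median was not counted.

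**Figure D2:**
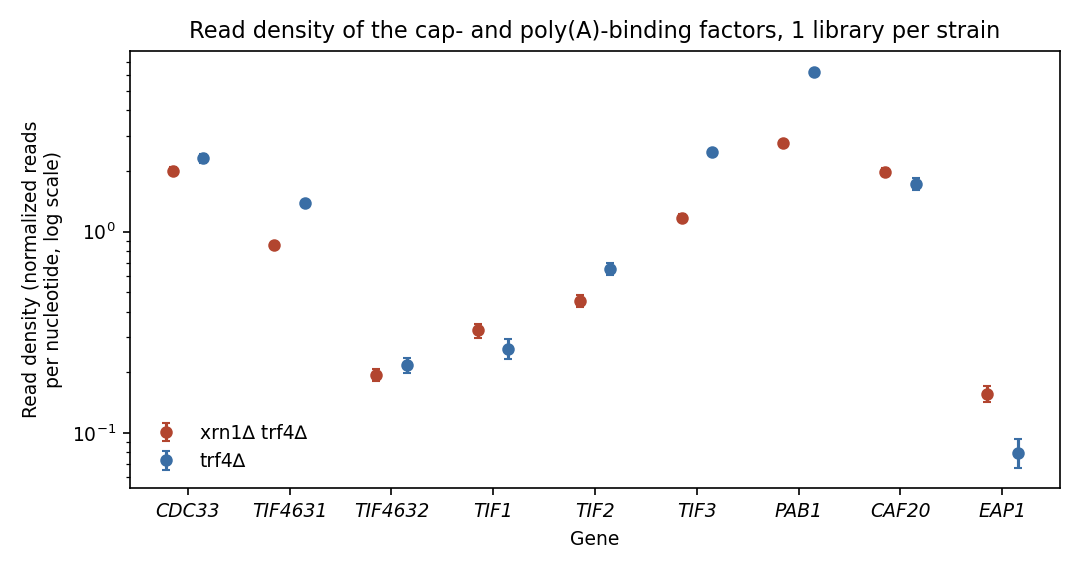
Read density (normalized reads per nucleotide, log scale) of each gene in *xrn1*∆ *trf4*∆ (red) and *trf4*∆ (blue), 1 library each, with exact 95% counting intervals as bars, some smaller than the points. With densities as deposited, *PAB1* is highest in both libraries, at 2.74 in *xrn1*∆ *trf4*∆ and 6.19 in *trf4*∆, and *EAP1* lowest, at 0.156 in *xrn1*∆ *trf4*∆ and 0.0790 in *trf4*∆.

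*CDC33*, the single gene of the cap-binding subunit eIF4E (chrXV:60383-61024, minus strand), was slightly lower in *xrn1*∆ *trf4*∆ under the deposited scale. Its density was 2.01 in *xrn1*∆ *trf4*∆ (2061 reads) and 2.31 in *trf4*∆ (1484 reads). The log2 ratio of -0.20 (95% interval -0.30 to -0.10) lies 0.99 below the ORF median, at the 12.6th percentile of ORFs. It comes to -1.15 when scaled on the median ORF and to -0.99 with the trimmed mean. *CDC33* is, however, among the decile of ORFs with the highest mean density, whose median log2 ratio was -0.07, and within that decile it stood at the 42.6th percentile.

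The scaffold genes were both lower in *xrn1*∆ *trf4*∆, and to different extents. *TIF4631* (chrVII:824059-826917, plus strand), which gives the more abundant eIF4G mRNA, had a density of 0.863 in *xrn1*∆ *trf4*∆ (3938 reads) and 1.39 in *trf4*∆ (3981 reads), a log2 ratio of -0.69 (-0.75 to -0.63). *TIF4632* (chrVII:406860-409604, minus strand) had 0.193 in *xrn1*∆ *trf4*∆ (846 reads) and 0.216 in *trf4*∆ (593 reads), a log2 ratio of -0.16 (-0.32 to -0.0088). Per nucleotide, *TIF4631* mRNA was thus 4.47 times that of *TIF4632* in *xrn1*∆ *trf4*∆ (4.15 to 4.82) and 6.45 times in *trf4*∆ (5.91 to 7.04). The balance of the copies moved by a log2 value of 0.53 (0.36 to 0.70) towards *TIF4632*, a shift that no scale between the libraries changes. ORFs of the density decile of *TIF4631* had a median log2 ratio of 0.33, and those of the decile of *TIF4632* one of 1.07. Whether the balance moved apart from this trend was not tested. The translated copies, of 952 and 914 residues, share 56.0% of their 884 aligned residues, and no window of 50 nt is shared, so their reads are not confused.

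The eIF4A helicase genes went apart. *TIF1* had a density of 0.323 in *xrn1*∆ *trf4*∆ (612 reads) and 0.262 in *trf4*∆ (311 reads), with a log2 ratio of 0.30 (0.10 to 0.50) that turns to -0.64 when scaled on the median ORF and to -0.48 with the trimmed mean, whereas *TIF2* had 0.451 in *xrn1*∆ *trf4*∆ (855 reads) and 0.652 in *trf4*∆ (775 reads), with a log2 ratio of -0.53 (-0.68 to -0.39). *TIF1* therefore took 41.7% of the reads of the pair in *xrn1*∆ *trf4*∆ (39.2 to 44.3) and 28.6% in *trf4*∆ (26.0 to 31.4). These densities divide by the whole length. Divided by the 172 windows that are unique without mismatches, the normalized reads came to 2.23 per window for *TIF1* in *xrn1*∆ *trf4*∆ and 1.81 in *trf4*∆, and to 3.11 for *TIF2* in *xrn1*∆ *trf4*∆ and 4.51 in *trf4*∆. On this scale *CDC33* had 2.18 in *xrn1*∆ *trf4*∆ and 2.50 in *trf4*∆, and *PAB1* had 2.82 in *xrn1*∆ *trf4*∆ and 6.37 in *trf4*∆. Reads that start just outside the ORF may add to these counts. The methods do not state how reads with a mismatched second position were treated, so levels of *TIF1* and *TIF2* against other genes are uncertain. The split of reads between the copies is uncertain for the same reason, and the counting intervals do not cover this. With their reads added, eIF4A had 1467 reads in *xrn1*∆ *trf4*∆ and 1086 in *trf4*∆, a log2 ratio of -0.24 (-0.36 to -0.13).

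*TIF3*, the gene of the helicase cofactor eIF4B (chrXVI:868645-869955, minus strand), had a density of 1.17 in *xrn1*∆ *trf4*∆ (2451 reads) and 2.49 in *trf4*∆ (3258 reads). Its log2 ratio of -1.09 (-1.16 to -1.01) placed it at the 2.43rd percentile of ORFs. Against *CDC33* mRNA, *TIF3* mRNA stood at 0.582 per nucleotide in *xrn1*∆ *trf4*∆ (0.549 to 0.618) and at 1.08 in *trf4*∆ (1.01 to 1.14).

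*PAB1* (chrV:510373-512106, plus strand) had the highest density of the 9 genes in both libraries, with densities as deposited, and the lowest log2 ratio. Per unique window *TIF2* stood above it in *xrn1*∆ *trf4*∆, at 3.11 against 2.82, and below it in *trf4*∆, at 4.51 against 6.37. The density of *PAB1* was 2.74 in *xrn1*∆ *trf4*∆ (7596 reads) and 6.19 in *trf4*∆ (10738 reads), so that fewer reads were counted in the deeper library. The log2 ratio was -1.17 (-1.22 to -1.13), 1.96 below the ORF median and at the 1.99th percentile of ORFs. *PAB1* made up 37.3% of the reads of the 9 genes in *xrn1*∆ *trf4*∆ (36.6 to 38.0) and 48.5% in *trf4*∆ (47.9 to 49.2). Reads that fit both *TIF1* and *TIF2* may be missing from the total, and with them the share of *PAB1* would be lower. *PAB1* is in the decile of ORFs with the highest density, as *CDC33* is, and there stood at the 5.67th percentile. Per nucleotide it reached 1.36 times *CDC33* in *xrn1*∆ *trf4*∆ (1.30 to 1.43) and 2.68 times in *trf4*∆ (2.54 to 2.83).

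The mRNAs of the eIF4E-binding proteins were, with *TIF1*, the 3 that were higher in *xrn1*∆ *trf4*∆ under the deposited scale. *CAF20* (chrXV:841333-841818, plus strand) had a density of 1.98 in *xrn1*∆ *trf4*∆ (1534 reads) and 1.73 in *trf4*∆ (841 reads), a log2 ratio of 0.19 (0.070 to 0.32) that turns to -0.75 when scaled on the median ORF and to -0.59 with the trimmed mean. *EAP1* (chrXI:53704-55602, plus strand) had 0.156 in *xrn1*∆ *trf4*∆ (473 reads) and 0.0790 in *trf4*∆ (150 reads), a log2 ratio of 0.98 (0.71 to 1.26), the only one of the 9 above the ORF median, which its interval holds. Scaled on the median ORF it comes to 0.04 and with the trimmed mean to 0.20, both within counting error of 0, and a pseudocount of 0.1 gives 0.52. Relative to *CDC33*, whose protein both bind, *CAF20* mRNA came to 0.983 per nucleotide in *xrn1*∆ *trf4*∆ (0.920 to 1.05) and 0.749 in *trf4*∆ (0.687 to 0.815), and *EAP1* mRNA to 0.0776 in *xrn1*∆ *trf4*∆ (0.0701 to 0.0858) and 0.0342 in *trf4*∆ (0.0287 to 0.0404). The mRNAs of the eIF4E-binding proteins thus stood higher against eIF4E mRNA in *xrn1*∆ *trf4*∆, by log2 values of 0.39 (0.24 to 0.55) and 1.18 (0.90 to 1.47), and so did *TIF1*, by 0.50 (0.28 to 0.73). *TIF4631*, *TIF2*, *TIF3* and *PAB1* stood lower against it, by values between -0.33 (-0.50 to -0.16) for *TIF2* and -0.97 (-1.08 to -0.87) for *PAB1*. *TIF4632* did not differ from it beyond counting error, at 0.039 (-0.14 to 0.22). These shifts do not depend on the scale between the libraries, but they do not allow for density. The median log2 ratio of ORFs of the same density decile was -0.07 for *CDC33*, 0.33 for *CAF20* and 1.15 for *EAP1*. Whether *CAF20* and *EAP1* shifted beyond that trend was not tested.

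**Figure D3:**
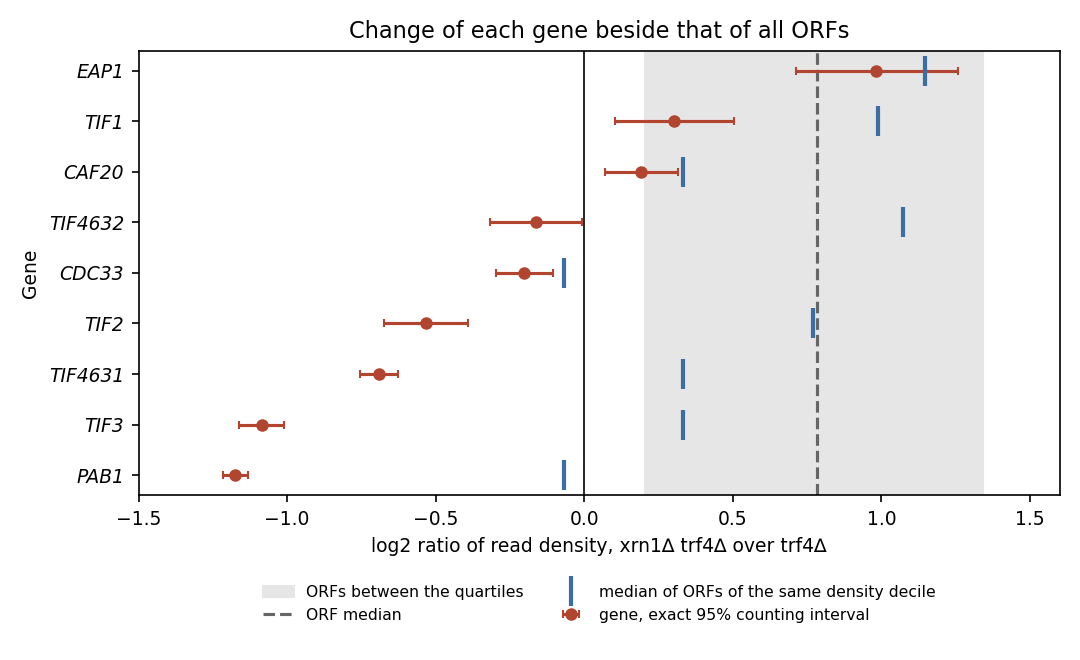
log2 ratio, *xrn1*∆ *trf4*∆ over *trf4*∆ (horizontal axis), for each gene, with its exact 95% counting interval, beside the median (dashed) and the quartiles (grey band) of 5638 ORFs. Blue ticks give the median of the ORFs of the same decile by mean density. *PAB1* and *TIF3* are lowest, at -1.17 and -1.09, and *EAP1* at 0.98 is alone to the right of the ORF median.

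The order of the mRNAs by density changed between the strains. In *xrn1*∆ *trf4*∆ it was *PAB1*, *CDC33*, *CAF20*, *TIF3*, *TIF4631*, *TIF2*, *TIF1*, *TIF4632* and *EAP1*, and *CDC33* and *CAF20* did not differ beyond counting error, with a ratio of 1.02 (0.952 to 1.09). In *trf4*∆ *TIF3* came second, ahead of *CDC33* by a ratio of 1.08 (1.01 to 1.14), and the rest kept the same order. The places of *TIF1* and *TIF2* hold for densities as deposited only. Per unique window *TIF2* came ahead of *PAB1* in *xrn1*∆ *trf4*∆ (3.11 against 2.82) and next after it in *trf4*∆ (4.51 against 6.37). *TIF1* had 2.23 in *xrn1*∆ *trf4*∆, near *CDC33* at 2.18. The span of the deposited densities narrowed. *PAB1* had 17.6 times the density of *EAP1* in *xrn1*∆ *trf4*∆ (16.0 to 19.3) and 78.4 times in *trf4*∆ (66.7 to 92.7). ORFs of the density decile of *PAB1* had a median log2 ratio of -0.07, and those of the decile of *EAP1* one of 1.15. A narrowing beyond this trend was not tested. Among the 36 pairs of genes, the log2 ratios differed beyond counting error in 34. The exceptions were *CDC33* with *TIF4632*, with a difference of -0.039 (-0.22 to 0.14), and *TIF1* with *CAF20*, with 0.11 (-0.13 to 0.35). The intervals only just excluded 0 for *TIF4631* with *TIF2* (-0.31 to -0.0014) and for *TIF3* with *PAB1* (0.0014 to 0.18). The share of all ORF pairs that differ by this rule was not counted, so the 34 pairs have no background here.

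Ratios across the transcriptome depend on density, so each gene was set beside ORFs of its own decile by mean log2 density. With densities as deposited, all 9 genes lay below the median of their decile, as did 15 of 21 other initiation factors and 10 of 11 partners of the cap, the poly(A) tail and eIF4G. *CDC33*, *CAF20* and *EAP1*, the genes of eIF4E and of its binding proteins, lay near it, at the 42.6th, 41.1st and 41.1st percentile. The scaffold, helicase, eIF4B and poly(A)-binding genes lay further below. *TIF3* stood at the 3.01st percentile, *TIF2* at the 3.20th, *TIF4632* at the 3.91st, *PAB1* at the 5.67th, *TIF4631* at the 5.85th and *TIF1* at the 15.4th, and these 6 were under the first quartile of their decile, as were 9 of the 21 initiation factors and 6 of the 11 partners. *TIF4632* differs in this respect from *CDC33*, although their log2 ratios are alike, since the median of its decile was 1.07. The places of *TIF1* and *TIF2* rest on the length used. With normalized reads per unique window both fall in the highest decile, where *TIF1* stands at the 69.9th percentile, above the median, and *TIF2* at the 26.4th, above the first quartile. The counts are then 8 of 9 below the median and 4 of 9 below the first quartile. The grouping by role was made after the values were seen.

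**Figure D4:**
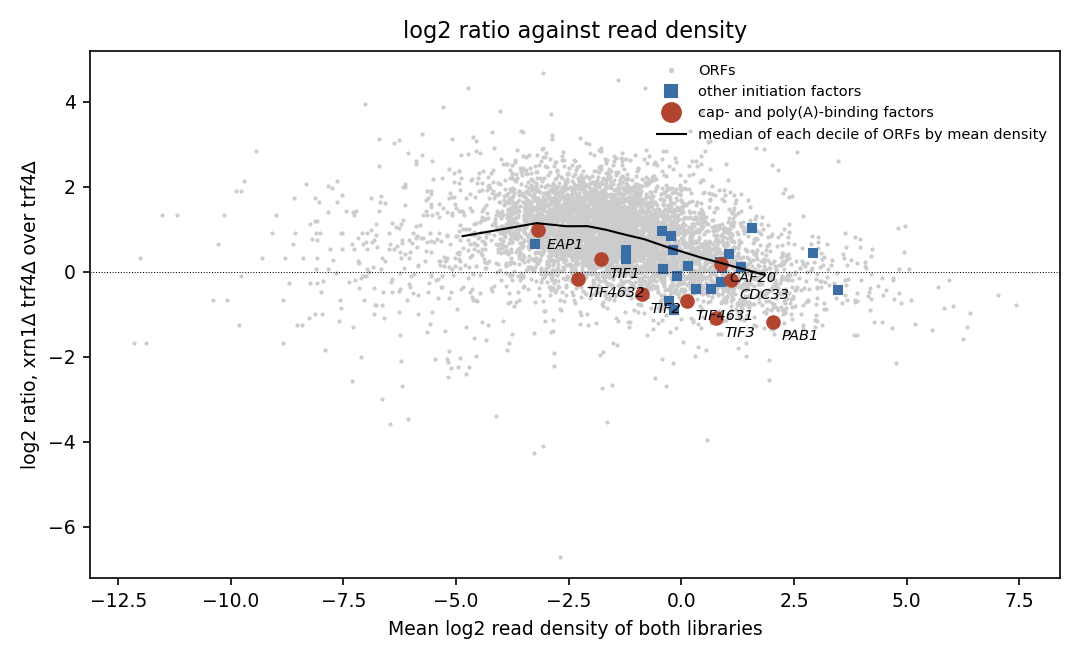
log2 ratio, *xrn1*∆ *trf4*∆ over *trf4*∆ (vertical axis), against mean log2 density (horizontal axis) for 5638 ORFs (grey), the 9 genes (red) and 21 other initiation factor genes (blue). The line joins the medians of the deciles of ORFs by density, from 0.84 in the lowest decile through a peak of 1.15 to -0.07 in the highest, and with densities as deposited all 9 genes lie below the median of their decile.

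The 9 genes are spread over chromosomes V, VII, X, XI, XV and XVI. Their length runs from 486 nt (*CAF20*) to 2859 nt (*TIF4631*) and their GC content from 39.2% (*TIF4632*) to 43.9% (*TIF3*), against an ORF median of 39.8% with quartiles of 37.8 and 42.2. The RefSeq annotation of R64 places 0 genes across any of them. Antisense and unstable transcripts of the table carry no coordinates, so overlap with those was not examined, and the methods do not state whether reads were counted by strand. Most ORFs on either side had higher ratios. The 18 flanking ORFs had a median log2 ratio of 0.86, 11 of them lay above the ORF median, and 16 were higher than the gene they flank, near the background, since on average 82.8% of all ORFs were higher than one of the 9 genes. The exceptions were the neighbours of *EAP1*, *LOS1* (0.73) and *TOR2* (0.11). The flanks of *PAB1*, *CHD1* (-0.05) and *DNF1* (-0.28), were the only ones below 0.

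By density in both libraries together, the ORF nearest to *CDC33* outside the lists used here was *RPL18B*, a ribosomal protein gene, at a distance of 0.02 on the log2 scale. Nearest to *TIF4631* was *ARE1* (0.05), to *TIF4632* *SPB1* (0.04), to *TIF1* *FSH3* (0.04), to *TIF2* *RPF2* (0.01), to *TIF3* YOR072W-B (0.10), to *PAB1* YNL208W (0.04), to *CAF20* *SQT1* (0.05) and to *EAP1* *NMD2* (0.03). With a pair of libraries this measure says only that the densities are alike.

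No other initiation factor had a log2 ratio as low as those of *PAB1* and *TIF3*, the lowest of the 9 genes. Within density deciles this does not hold. There *FUN12* stood at the 1.95th percentile and *RPG1* at the 4.43rd, beside *TIF3* at the 3.01st and *PAB1* at the 5.67th. The list of 21 genes covers the factors that choose the start codon (eIF1, eIF1A, eIF5), the carrier of the initiator tRNA (eIF2) with its exchange factor (eIF2B), the large factor eIF3, the factors of subunit joining and biogenesis (eIF5B, eIF6) and the helicases *DED1* and *DBP1*. Their median log2 ratio was 0.14 (range -0.90 to 1.03), although it turns to -0.80 when scaled on the median ORF and to -0.64 with the trimmed mean. Above 0 were 14 (66.7%, against 82.0% of ORFs). More than 2-fold higher was 1, against 40.1% of ORFs, and more than 2-fold lower were 0, against 2.63%. Against the ORF median 18 were lower, 6 by more than 1 log2 unit, which 12.3% of ORFs were. The lowest were *FUN12* (eIF5B, -0.90), *RPG1* (a subunit of eIF3, -0.68) and *DED1* (-0.42), and the highest *SUI1* (eIF1, 1.03), *GCD7* (eIF2B, 0.97) and *GCN3* (eIF2B, 0.84). *SUI1* had a density of 4.21 in *xrn1*∆ *trf4*∆ (2199 reads) and 2.06 in *trf4*∆ (673 reads). *FUN12* had 0.650 in *xrn1*∆ *trf4*∆ (3123 reads) and 1.21 in *trf4*∆ (3641 reads). The 3 genes of eIF2 lay between -0.40 and -0.11, all 5 of eIF2B between 0.08 and 0.97, and the 6 of eIF3 between -0.68 and 0.43. The quartiles of all ORFs were 0.20 and 1.34. Whether subunits of a factor lie closer together than other ORFs was not tested.

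Among 11 partners of the cap, the poly(A) tail and eIF4G, the median log2 ratio was 0.18 (range -0.46 to 1.04), which also passes below 0 under those 2 scalings, and 7 were above 0 (63.6%, against 82.0% of ORFs). Against the ORF median 9 were lower, 2 by more than 1 log2 unit, which 12.3% of ORFs were. The highest was *PAN3* (1.04), a subunit of the poly(A) nuclease that Pab1p recruits, with a density of 0.298 in *xrn1*∆ *trf4*∆ (972 reads) and 0.145 in *trf4*∆ (295 reads). *CBC2* (0.83), of the nuclear cap-binding complex, and *NAB2* (0.46), a nuclear poly(A)-binding protein, followed. The lowest were *SBP1* (-0.46) and *NPL3* (-0.27), which bind eIF4G, and *SUP35* (-0.18), the release factor eRF3, which binds Pab1p. *NAB2* mRNA, whose protein coats poly(A) tails in the nucleus, was thus higher in *xrn1*∆ *trf4*∆ under the deposited scale, at a density of 1.55 against 1.13 in *trf4*∆, where *PAB1* mRNA was lower. Its sign turns when scaled on the median ORF or with the trimmed mean.

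**Figure D5:**
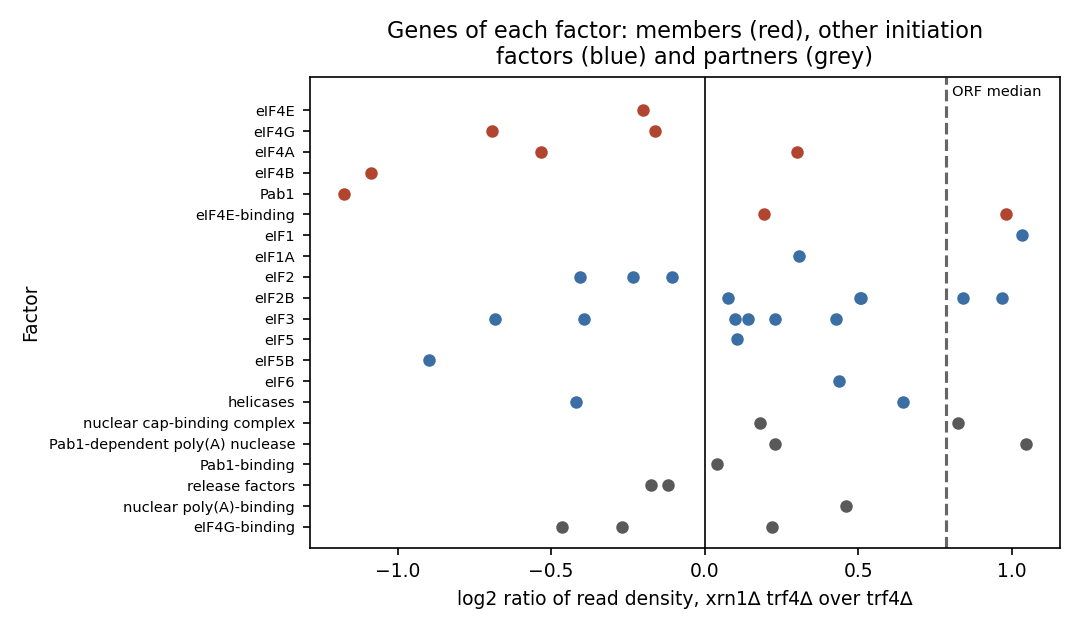
log2 ratio, *xrn1*∆ *trf4*∆ over *trf4*∆ (horizontal axis), for every gene, in rows by factor. Red points are the 9 genes described, blue the 21 other initiation factors, grey the 11 partners, and some points coincide. The dashed line is the ORF median of 0.78, above which lie *EAP1*, 3 other initiation factors and 2 partners.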

How the data were processed

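The libraries were made from rRNA-depleted total RNA and sequenced as 50 nt reads on a SOLiD instrument. Per the labels and methods, the authors aligned reads to the S288c genome with Bowtie 0.12.7, allowing up to 3 mismatches, and kept those with a unique position. The methods add that repeated sequences were mapped separately and do not list them. The release of the genome is not given in the sources used here. The deposited values are a coverage signal, the density of reads per nucleotide, scaled by the authors to the total on ORFs. Both value columns were used and 0 were left out.

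Names, lengths and sequences come from the RefSeq R64 assembly, in which 5770 of 5775 ORF identifiers were found. Densities times length were taken as reads where whole within 0.01 (5738 ORFs), with 1 read worth 0.626 in *xrn1*∆ *trf4*∆ and 1 in *trf4*∆. Log2 ratios have no pseudocount. Single values carry Clopper-Pearson 95% intervals of reads, and changes of a ratio within a pair carry conditional exact intervals of the odds ratio. The functions were tested on simulated data. Windows of 50 nt were searched on both strands with up to 3 mismatches between bases, although SOLiD reads are aligned in colours.

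The members and lists were chosen with earlier results of these data known. Named genes are the 9 genes, the 3 highest and 3 lowest of each list, the nearest ORF and the deleted genes; flanking ORFs were added afterwards. Alternatives were 3 scalings, pseudocounts of 0.01 and 0.1, a density minimum of 0.05 and other treatments of *TIF1* and *TIF2*, of which the added reads, the windows with mismatches and the decile by unique windows were chosen after seeing the data. Computations ran in SciPy 1.17.1 with NumPy 2.4.6 and pandas 2.3.3 under Python 3.11.15, and plots in matplotlib 3.10.9.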

Additional observations from a re-analysis of the deposited data

How the results depend on the processing

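The scale between the libraries was the choice that moved most values. Scaled on the median ORF, the 9 genes had a median log2 ratio of -1.15 and the other initiation factors one of -0.80, and 6 genes were more than 2-fold lower. With a 30% trimmed mean of the ORF log2 ratios set to 0, the initiation factors had -0.64, and 4 genes were more than 2-fold lower. These 2 shifts apply to every ORF, so the share of ORFs more than 2-fold lower also rises above the 2.63% of the deposited scale. When scaled on the median ORF, it lies between 12.3% and the share of ORFs below 0 as deposited (1014 of 5638). Under both shifts, *TIF1* (-0.64 and -0.48) and *CAF20* (-0.75 and -0.59) changed sign, *EAP1* came to 0.04 and 0.20, and 8 genes stayed below the ORF median. Equal sums of ORF densities and the pseudocounts left 2 genes more than 2-fold lower and 0 higher. The median was -0.20 without *TIF1* and *TIF2*, but these lie on either side of it (0.30 and -0.53), so it could not move. The density minimum of 0.05 removed none of the other initiation factors, so their median of 0.14 could not change either. A pseudocount of 0.1 lowered *EAP1* to 0.52. Counting the windows of *TIF1* and *TIF2* with 3 mismatches allowed left 0 unique windows and so gave no density. No paired analysis was possible because each strain has 1 library. Depth limits *EAP1* most, with 150 reads in *trf4*∆.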

Other observations

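The flanking ORFs were chosen after their values were seen. *ARG8*, a gene of arginine synthesis on the opposite strand 352 nt from *CDC33*, had 7037 reads in *xrn1*∆ *trf4*∆ and 671 in *trf4*∆, a log2 ratio of 2.72, the highest of the 18. The glycogenin genes *GLG1* and *GLG2* are the 5′ neighbours of *TIF1* and *TIF2* on the same strand. *GLG1* had 924 reads in *xrn1*∆ *trf4*∆ and 126 in *trf4*∆, a log2 ratio of 2.20, and *GLG2* had 283 in *xrn1*∆ *trf4*∆ and 70 in *trf4*∆, a log2 ratio of 1.34.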
